A study of Sus scrofa with 6 samples.

Results

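The genes described here encode enzymes that make or interconvert glutamine, glutamate, asparagine, aspartate, alanine and proline, together with PCK2, which draws carbon from the mitochondrial pool these amino acids feed. They were chosen by symbol: 9 were listed, and 8 were matched to a row among the 20731 genes of the expression table (ASNS, GPT2, GOT1, GOT2, GLUD1, ALDH18A1, PYCR1 and PCK2). GLUL, the gene of glutamine synthetase, was not matched and was not analysed here. The RNA came from immature pig Sertoli cells, the somatic nurse cells of the testis tubule, in 6 libraries. The 3 MT libraries are of cells given melatonin, the pineal hormone, at 10 nM for 36 h, and the 3 Control libraries carry no stated dose, solvent or time. All 6 carry the same cell and genotype label, and breed, animal age and the source of each replicate are not given, so the p-values reflect library-to-library spread alone, and that spread may be technical. Values are FPKM, the number of fragments divided by gene length and by library size, so levels can be set side by side between genes.

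Glutamate stands at the centre of this network. Glutamate dehydrogenase and the aminotransferases exchange its amino group and carbon with the citric acid cycle, asparagine synthetase spends the amide nitrogen of glutamine, and proline is built from the carbon chain of glutamate. Sertoli cells in culture are known to use glutamine as a fuel, which spares glucose carbon for the lactate they pass to germ cells. ASNS is a textbook target of the amino acid response, the transcription programme that cells run when amino acids are short or the endoplasmic reticulum is stressed.

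Control 3 stood apart over the whole table. The leading principal component, with 68.2% of the variance, placed it at 40.4, Control 1 and Control 2 at -22.0 and -21.7, and MT 1 to 3 at 7.52, -10.4 and 6.20. The MT libraries thus lay between Control 3 and the other Control libraries. Without Control 3 the groups lay apart on this component, and its part in the calls made without Control 3 was not tested. The log2 values of Control 3 correlated across genes at 0.938 and 0.939 with Control 1 and Control 2, and at 0.952 to 0.975 with the MT libraries, genes not being independent replicates. Mitochondrially encoded mRNAs took 2.73% of its reads and 4.37% to 5.58% of those of the others. The log2 differences of single genes are therefore given with and without it. Of 14 Sertoli cell markers 10 were matched and 7 reached a mean of 1 FPKM, among them AMH (11.3 to 15.6 FPKM), WT1 (10.0 to 12.8) and SOX9 (1.61 to 2.40), while INHA (0 to 0.098) and DHH were under 0.2 FPKM on average, and FSHR, GATA4, CLDN11 and CDH2 were not matched. The summed level of the matched Sertoli markers was 3021 to 3545 FPKM in Control and 3411 to 4007 in MT, nearly all of it CLU (2908 to 3420 and 3292 to 3894), while AMH and SOX9 had log2 differences of -0.12 and -0.22 (-0.01 and -0.21 without Control 3). The 5 myoid cell markers summed to 160.3 to 264.8 FPKM in Control and 161.7 to 194.2 in MT, nearly all of it TAGLN, with ACTA2 and MYH11 under 0.2 FPKM on average. The 2 tested differed in direction, with log2 differences of -0.20 for TAGLN and 0.35 for DES (-0.015 and 0.42 without Control 3). The groups overlapped in both. The matched markers of Leydig cells (3 of 6), macrophages (4 of 5), germ cells (3 of 7) and endothelium (2 of 4) summed to at most 5.44 FPKM per cell type in any library. HSD3B1, INSL3, LHCGR, PTPRC, DAZL, ZBTB16, KIT, NANOS2, VWF and TEK were not matched, so these sums do not show that such cells were absent. The Leydig cell marker STAR was at 2.12 to 2.68 FPKM. The macrophage marker CD68 was at 4.14, 3.18 and 3.87 FPKM in the Control libraries and 5.30, 4.50 and 4.66 in MT, with no overlap (log2 difference 0.30, and 0.33 without Control 3, adjusted p 1.0 and 0.096), while CSF1R and CD163 were under 0.2 FPKM on average. AIF1, the remaining matched macrophage marker, was lower on average in MT, on only 3 to 20 reads, and was not tested. Its groups overlapped, with Control spanning 0.198 to 0.705 FPKM and MT spanning 0.096 to 0.50. The macrophage markers thus did not share a direction. The part of these cell types in the results was not tested.

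The 4 enzymes with the widest distance between groups were PCK2, ASNS, GPT2 and PYCR1, which stood 2.27, 2.12, 1.59 and 1.33 times as high in MT as in Control by group means. GOT1 differed by a factor of 1.10, and GOT2, GLUD1 and ALDH18A1 stood close to their Control means (factors of 0.976, 0.984 and 0.989). With all 6 libraries none of the 8 passed an adjusted p of 0.05 in limma, where 0 of 10950 tested genes (0%) passed and 517 had an unadjusted p under 0.05. limma voom on the recovered reads also passed 0 genes, with 494 under an unadjusted 0.05. Without Control 3, PCK2, ASNS, GPT2 and PYCR1 rose, 4 of 8, where 4.28% of all tested genes rose and 6.62% fell. In 4 of the 8 (PCK2, ASNS, GPT2 and GOT1) the MT values lay above every Control value, as in 6.24% of tested genes, and in 0 of the 8 below, as in 4.99%. The median log2 difference of the 8 was 0.28 (0.38 without Control 3), and 0.021 (-0.004) over all tested genes. The genes were listed with earlier results of these libraries known, so these counts describe them and are no independent evidence of a direction. In bulk RNA, fewer cells of a type and less RNA per cell cannot be told apart.

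**Figure D1:**
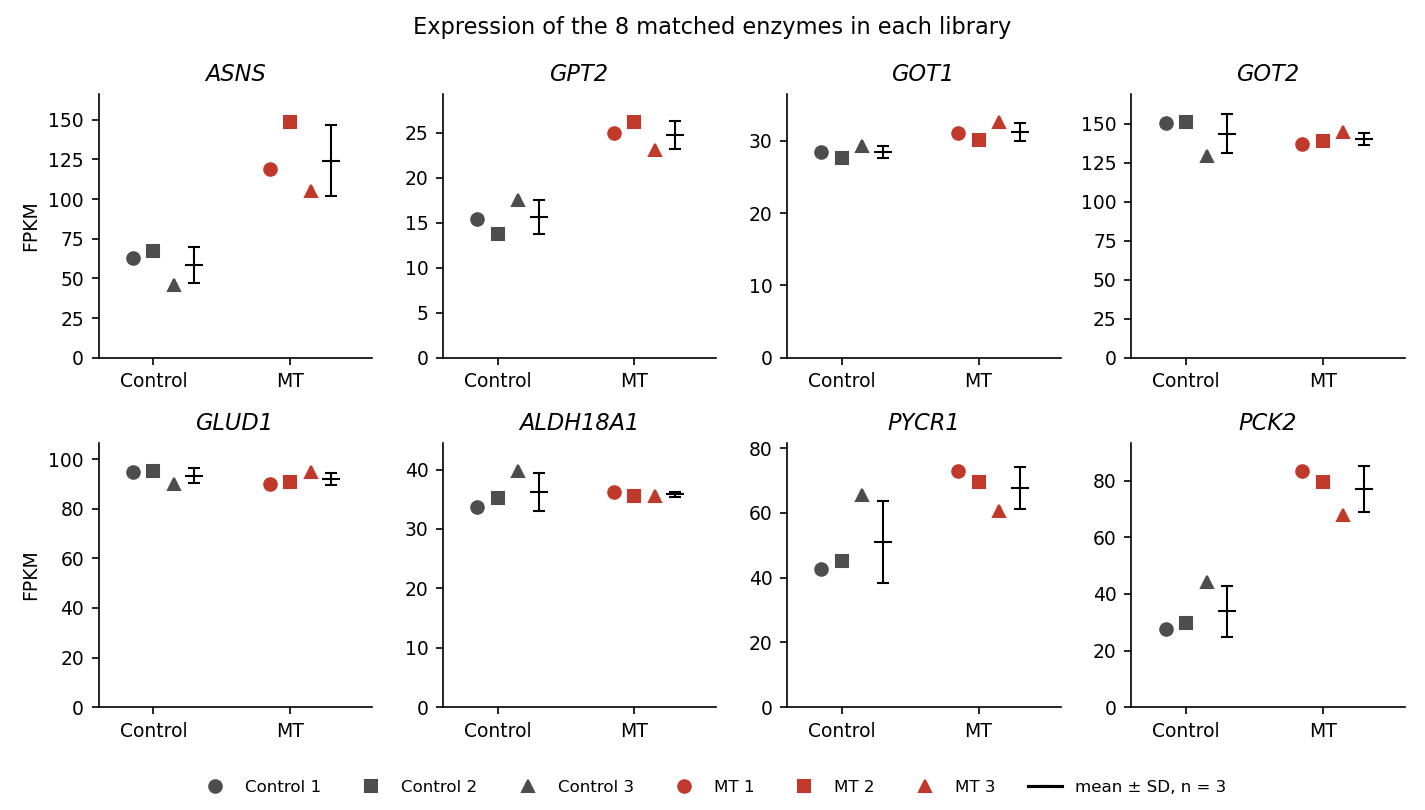
FPKM of each of the 8 matched enzymes (vertical axes, each from 0) in the 3 Control and 3 MT libraries, with 1 symbol per library and the mean ± SD of 3 beside each group. The MT libraries lie above every Control library for ASNS, GPT2, GOT1 and PCK2, whereas for PYCR1 Control 3 (65.5 FPKM) lies above MT 3 (60.6 FPKM).

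ASNS, asparagine synthetase, makes asparagine from aspartate with glutamine as the nitrogen donor. Its gene (ENSSSCG00000015340) lies on chromosome 9 from 77318341 to 77336290 of Sscrofa11.1. It was at 63.2, 67.2 and 45.8 FPKM in Control 1 to 3 and at 119.1, 148.7 and 104.9 in MT 1 to 3. The lowest MT library thus lay well above the highest Control library, and Control 3 was the Control library farthest from MT in this gene. The means were 58.7 ± 11.4 and 124.2 ± 22.3 FPKM (SD, n = 3), a log2 difference of 1.07 (SE 0.19, adjusted p 0.31). Without Control 3 the difference was smaller, at 0.91, and passed (adjusted p 0.025), and with any other library left out it was 0.94 to 1.19 (adjusted p 0.69 to 1).

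GPT2 is the mitochondrial alanine aminotransferase, which passes the amino group of glutamate to pyruvate and so links alanine to the citric acid cycle. Its gene (ENSSSCG00000002847, chromosome 6, 37625428 to 37669695) was at 15.4, 13.8 and 17.6 FPKM in the Control libraries and 24.9, 26.2 and 23.1 in the MT libraries. The groups did not overlap, and the gap from Control 3 to MT 3 exceeded the range within either group. Means were 15.6 ± 1.88 and 24.8 ± 1.57 FPKM (SD, n = 3), with a log2 difference of 0.64 (SE 0.12, adjusted p 0.36) over 6 libraries and 0.72 (adjusted p 0.017) without Control 3. The cytosolic isozyme GPT was not matched, so the balance between the alanine aminotransferases was not analysed here.

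GOT1 and GOT2 are the cytosolic and mitochondrial aspartate aminotransferases, which make aspartate from oxaloacetate and run the malate-aspartate shuttle. GOT2 (ENSSSCG00000032985, chromosome 6, 20407203 to 20431849) had the highest group means of the 8, with 143.6 ± 12.3 FPKM for Control and 140.2 ± 3.94 for MT (SD, n = 3). Its libraries read 150.3, 151.1 and 129.3 FPKM in the Control libraries and 137.0, 139.1 and 144.6 in MT, so the MT values lay between Control 3 and the other Control libraries. The log2 difference was -0.03 with a 95% interval of -0.28 to 0.22, and -0.10 without Control 3 (adjusted p 0.25). GOT1 (ENSSSCG00000010537, chromosome 14, 110608422 to 110635825) was at 28.4, 27.6 and 29.3 FPKM in the Control libraries and 31.0, 30.2 and 32.6 in MT. The GOT1 groups did not overlap but were close, with a log2 difference of 0.13 (SE 0.095, adjusted p 1.0) and 0.15 without Control 3 (adjusted p 0.15). GOT1 rested on 1104 to 1348 reads per library, the fewest among the 8, for which counting alone gives an error of up to 3.01%, close to the spread within Control (2.97% of the mean).

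GLUD1, mitochondrial glutamate dehydrogenase, releases ammonia from glutamate to give 2-oxoglutarate. The gene (ENSSSCG00000010368, chromosome 14, 87968850 to 88005375) was at 95.0, 95.3 and 89.9 FPKM in the Control libraries and 90.2, 90.8 and 94.8 in MT. Each group held values near 90 and near 95 FPKM and the groups overlapped over nearly their whole range. The log2 difference was -0.02, with a 95% interval of -0.24 to 0.20 (adjusted p 1.0), and -0.05 without Control 3 (adjusted p 0.58). GLUD1 had the smallest spread within Control after GOT1, at 3.21% of the mean, and 2.70% in MT.

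The proline genes parted. ALDH18A1 encodes the synthase that reduces glutamate to pyrroline-5-carboxylate, and PYCR1 encodes the mitochondrial reductase that turns this into proline. ALDH18A1 (ENSSSCG00000010495, chromosome 14, 107174062 to 107221373) was at 33.7, 35.1 and 39.7 FPKM in the Control libraries and at 36.3, 35.5 and 35.6 in MT. The MT values fell inside the Control range, and the log2 difference was -0.01 (95% interval -0.26 to 0.24) over 6 libraries and 0.055 without Control 3 (adjusted p 0.55). PYCR1 (ENSSSCG00000034723, chromosome 12, 1060028 to 1064808) was at 42.7, 45.0 and 65.5 FPKM in the Control libraries and 73.0, 69.6 and 60.6 in MT. Control 3 reached the MT range and was the only Control library that did so. Means were 51.0 ± 12.5 and 67.7 ± 6.41 FPKM (SD, n = 3), with a log2 difference of 0.42 (SE 0.18, adjusted p 1.0). Without Control 3 the difference was 0.61 and passed (adjusted p 0.025), so the call for PYCR1 rested on leaving out the library that overlapped MT.

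PCK2, the mitochondrial phosphoenolpyruvate carboxykinase, turns oxaloacetate into phosphoenolpyruvate and lets carbon from glutamine and aspartate enter serine, glycerol and glucose synthesis. It had the smallest unadjusted p of the 8 and rank 19 among the 10950 tested genes. PCK2 (ENSSSCG00000002009, chromosome 7, 75187195 to 75197613) was at 27.6, 29.7 and 44.3 FPKM in the Control libraries and 83.5, 79.6 and 67.9 in MT. Control 3 was the highest Control library and MT 3 the lowest MT library, and the gap between them was wider than the range of either group. Means were 33.9 ± 9.07 and 77.0 ± 8.13 FPKM (SD, n = 3), with a log2 difference of 1.19 (SE 0.19, adjusted p 0.29), and 1.39 (adjusted p 0.0033) without Control 3. With any other library left out the difference was 1.06 to 1.27 (adjusted p 0.61 to 1).

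**Figure D2:**
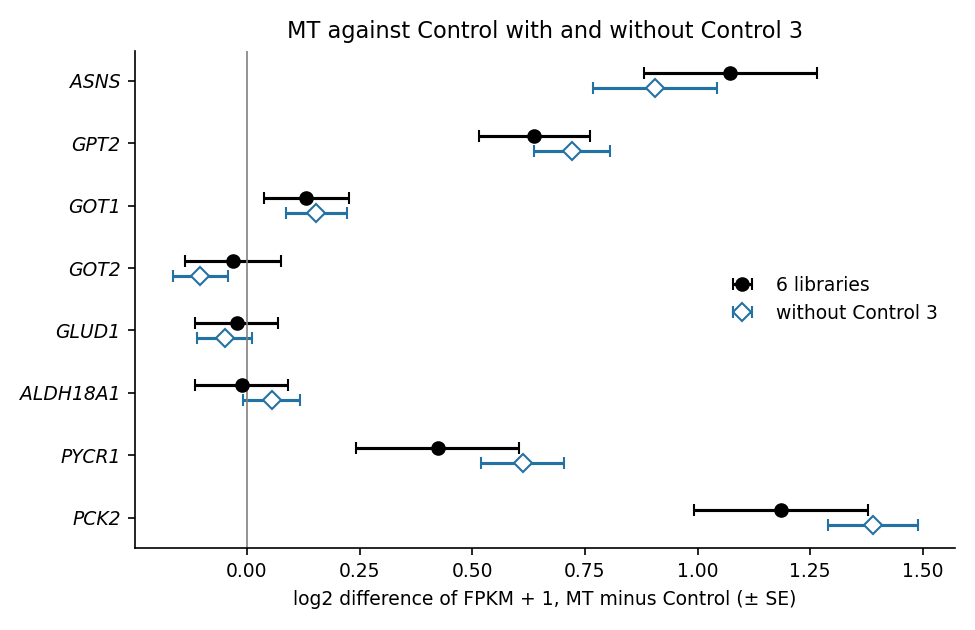
Log2 difference of FPKM + 1 between MT and Control (horizontal axis, ± SE) for the 8 enzymes with all 6 libraries (filled circles) and without Control 3 (open diamonds). Leaving out Control 3 moved PCK2 from 1.19 to 1.39 and PYCR1 from 0.42 to 0.61, and moved ASNS the other way, from 1.07 to 0.91.

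Control 3 did not deviate in 1 direction across these genes. Relative to the mean of Control 1 and Control 2 on the log2 scale it was higher in PCK2 (0.61), PYCR1 (0.57), GPT2 (0.25), ALDH18A1 (0.20) and GOT1 (0.064), and lower in ASNS (-0.50), GOT2 (-0.22) and GLUD1 (-0.08). For PCK2, PYCR1 and GPT2 it thus lay on the side of the MT libraries, and for ASNS on the far side.

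By FPKM level, the order in Control was GOT2, GLUD1, ASNS, PYCR1, ALDH18A1, PCK2, GOT1 and GPT2. ASNS and PYCR1, ALDH18A1 and PCK2, and PCK2 and GOT1 were neighbours in that order whose means differed by less than 1 SD of the more variable gene. In MT the order was GOT2, ASNS, GLUD1, PCK2, PYCR1, ALDH18A1, GOT1 and GPT2, and GOT2 and ASNS differed by less than the SD of ASNS. PCK2 moved from below ALDH18A1 to above PYCR1. Summed over the 8 genes, the level was 460.9 ± 4.32 FPKM in Control and 592.9 ± 27.9 in MT (SD, n = 3). Of the difference of 132.0 FPKM, ASNS held 65.5, PCK2 43.1, PYCR1 16.7 and GPT2 9.16. The 6 mitochondrial enzymes together stood at 364.7 to 386.3 FPKM in Control and 426.5 to 444.8 in MT. The cytosolic ASNS and GOT1 summed to 75.1 to 94.8 and 137.5 to 178.8. GOT1, ALDH18A1 and GLUD1, 3 of the 4 genes with the smallest differences, all lie on chromosome 14, and none of the 4 with the largest does. The share of all tested genes on that chromosome was not counted, so no pattern by position can be read from so few genes.

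Ratios between related genes within a library compare isozymes without the scaling between libraries. Of 6 ratios planned 3 could be formed, of which 2 are given, and an exact two-sided permutation test of 3 against 3 libraries cannot give a p under 0.1. PCK2 against PCK1, its cytosolic isozyme, was 13.8, 14.3 and 12.1 in Control and 24.3, 33.0 and 13.1 in MT (log2 difference 0.71, exact p 0.3, adjusted over the 3 ratios 0.3). The difference was 0.64 without Control 3, 0.42 without MT 2 and 1.08 without MT 3. MT 3 stood inside the Control range here. PCK1 was at 5.17 FPKM in that library and at no more than 3.67 in the other 5, on 170 to 465 reads over all 6. PCK2 was also lower in MT 3 (67.9 FPKM) than in MT 1 and MT 2. Mitochondrial GOT2 against cytosolic GOT1 was 5.29, 5.47 and 4.41 in Control and 4.41, 4.61 and 4.43 in MT (log2 difference -0.17, exact p 0.3, adjusted 0.3), so Control 3 had the ratio of the MT libraries. Without Control 3 the difference was -0.26 and without Control 2 it was -0.11.

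Another pair of ratios was picked after the values were seen and is given without a test. PYCR3, the cytosolic reductase, was at 41.6, 43.3 and 76.9 FPKM in the Control libraries and 53.9, 46.6 and 51.4 in MT, so Control 3 stood far above all the others. PYCR1 against PYCR3 was 1.02, 1.04 and 0.852 in Control and 1.35, 1.50 and 1.18 in MT. In this ratio, unlike in the level of PYCR1, Control 3 lay below Control 1 and Control 2, on the side away from MT. ASNS against ASRGL1, an asparaginase that breaks asparagine down, was 1.51, 1.61 and 1.11 in Control and 3.07, 3.88 and 2.65 in MT.

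**Figure D3:**
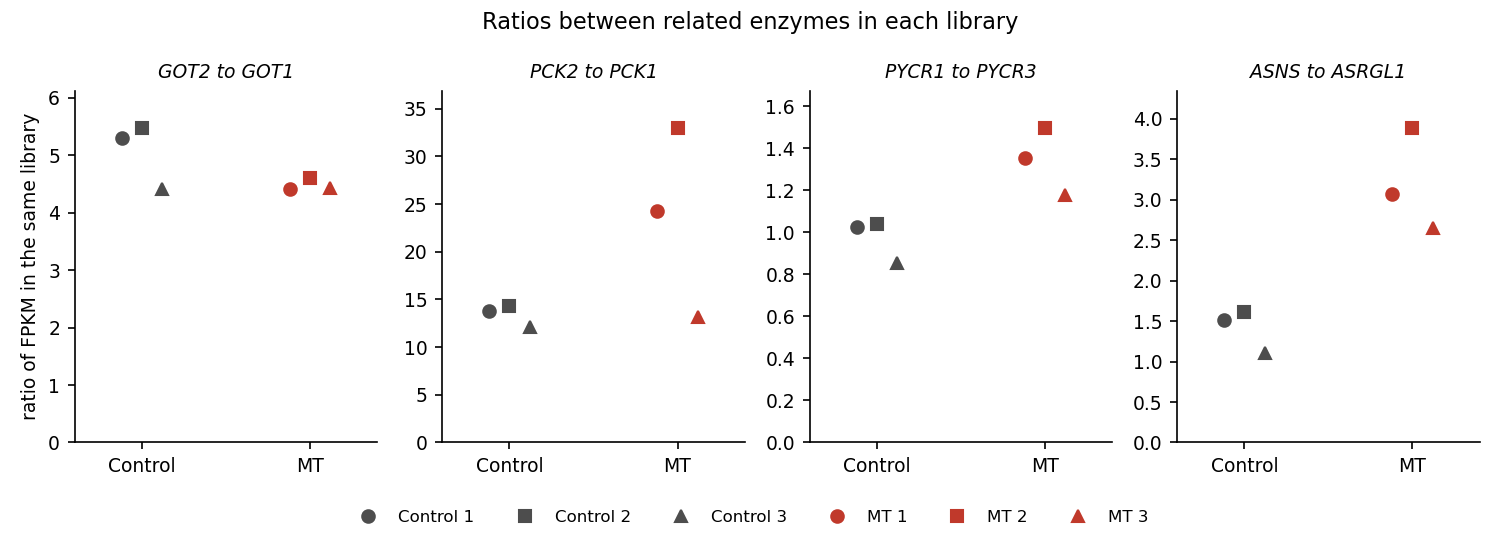
Ratio of FPKM between related genes within each library (vertical axes, each from 0), with 1 symbol per library. The MT libraries lie above every Control library for PYCR1 to PYCR3 and ASNS to ASRGL1, while for PCK2 to PCK1 the ratio of MT 3 (13.1) lies among those of Control.

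The other tested genes of these pathways lay nearer to their Control levels than PCK2, ASNS, GPT2 and PYCR1 did. This did not hold against GOT1, GOT2, GLUD1 and ALDH18A1, from which PCK1 (log2 difference 0.37) and AGXT (0.30), among others, stood farther off. Of 45 listed, 41 were matched and 33 tested, with 17 higher and 16 lower in MT and a median log2 difference of 0.007 (0.055 without Control 3). In 1 of the 33 every MT library lay above Control, where 6.24% of all tested genes did so. In 2 every MT library lay below, where 4.99% of all tested genes did so. None of the 33 passed over 6 libraries, and without Control 3 1 rose and 2 fell, shares near the 4.28% and 6.62% of all genes. The gene that rose was SLC1A5, which carries glutamine into the cell. SLC1A5 was at 249.7, 253.0 and 279.5 FPKM in the Control libraries and 312.8, 316.4 and 298.7 in MT, a log2 difference of 0.25 (adjusted p 1.0), and 0.30 without Control 3 (adjusted p 0.037). GFPT1, which spends glutamine to start hexosamine synthesis, was at 21.5, 21.1 and 12.8 FPKM in the Control libraries and 14.4, 15.7 and 13.4 in MT, and fell only without Control 3 (log2 difference -0.53, adjusted p 0.025, against -0.30 over 6 libraries, adjusted p 1.0). ADSS2, which joins aspartate to IMP and is named because it was the other gene that fell, was at 18.0, 18.1 and 10.8 FPKM in the Control libraries and 12.8, 14.6 and 14.3 in MT (-0.36 without Control 3, adjusted p 0.041, and -0.13 over 6 libraries). In both of these Control 3 lay below all 3 MT libraries.

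Among 6 tested genes of glutamine and glutamate breakdown 4 were higher, with a median of 0.13 (0.044 without Control 3) and 0 past the test with or without Control 3. NIT2, ALDH5A1 and ABAT, which handle products of glutamine, of glutamate and of its derivative GABA, had the smallest unadjusted p of that list, with log2 differences of 0.23, 0.18 and 0.23. Without Control 3 those of NIT2 and ALDH5A1 shrank to 0.034 and 0.055, and that of ABAT was 0.36. In the list for asparagine, aspartate and alanine 4 of 6 were higher, with a median of 0.074 (0.17 without Control 3) and 0 up and 1 down (ADSS2) without Control 3. ASRGL1 was at 41.9, 41.7 and 41.4 FPKM in the Control libraries and 38.8, 38.3 and 39.6 in MT, groups that did not overlap but differed by -0.10 in log2 with and without Control 3 (adjusted p 1.0 and 0.26). AGXT (0.30, and 0.51 without Control 3) and ADSS1 (0.11 and 0.13) were its other leading genes. Of 6 tested amidotransferases 5 were lower, with a median of -0.17 (-0.15 without Control 3) and 1 past the test without Control 3 (GFPT1). PPAT, which starts purine synthesis, had a log2 difference of -0.21 (-0.30 without Control 3) and CTPS2, which makes CTP, one of 0.15 (0.067).

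Of the other proline and ornithine genes 2 of 5 were higher, with 0 past the test with or without Control 3. PEPD, which frees proline from dipeptides, ALDH4A1, which returns proline carbon to glutamate, and OAT, which links ornithine to proline, had log2 differences of 0.18, -0.19 and 0.032. Without Control 3 that of PEPD was 0.36 (adjusted p 0.053), and the other two turned in sign, to 0.11 for ALDH4A1 and -0.10 for OAT. The PCK1 and malate-aspartate shuttle genes had 3 of 6 higher, a median of 0.003 (0.027 without Control 3) and 0 past the test. The carrier SLC25A11 lay below Control in all 3 MT libraries, on 115 to 152 reads. Its log2 difference was -0.20 with and without Control 3 (adjusted p 0.19 without it). MDH2, mitochondrial malate dehydrogenase, had a log2 difference of -0.07, which turned to 0.094 without Control 3. Of the 4 tested glutamine and glutamate carriers 3 were higher, with a median of 0.21 (0.052 without Control 3). Beside SLC1A5, SLC38A1 and SLC38A2 had log2 differences of 0.18 and 0.28 over 6 libraries and of -0.07 and -0.18 without Control 3, a turn in sign.

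**Figure D4:**
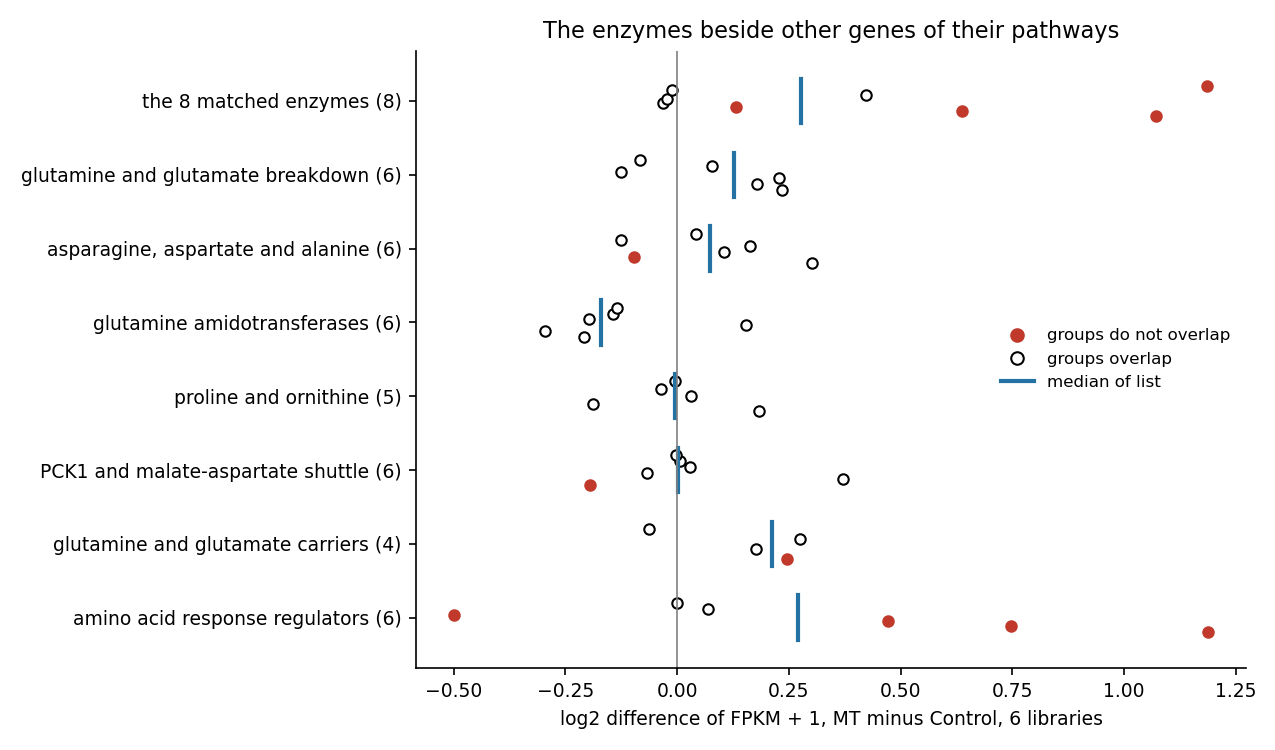
Log2 difference of FPKM + 1 between MT and Control over 6 libraries (horizontal axis) for each tested gene of 8 lists, with the number tested in brackets, filled where the groups do not overlap, and the list median as a bar. The enzymes reach from -0.03 to 1.19 and the 33 other pathway genes from -0.30 to 0.37.

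Of 8 regulators and markers of the amino acid response, 7 were matched and 6 tested. CHAC1, a glutathione-degrading enzyme, was at 10.4, 11.0 and 14.8 FPKM in the Control libraries and 32.0, 36.6 and 19.5 in MT. TRIB3, a pseudokinase that feeds back on the response, was at 14.1, 13.6 and 16.9 FPKM and at 27.3, 31.3 and 19.4. SESN2, a leucine sensor, was at 5.90, 5.99 and 7.40 FPKM and at 9.48, 9.79 and 8.54. In these 3 genes no groups overlapped, MT 3 was the lowest MT library, as in ASNS, GPT2, PYCR1 and PCK2, and all 3 rose without Control 3 (log2 1.33, 0.84 and 0.56, adjusted p 0.031, 0.039 and 0.024). Of all tested genes 6.24% had every MT library above Control, and 4.28% rose without Control 3. Over 6 libraries the 3 genes did not pass (log2 1.19, 0.75 and 0.47, adjusted p 0.43, 0.66 and 0.74). CEBPB, a transcription factor of the response, was lower in every MT library (99.8 to 104.9 FPKM) than in Control (111.4 to 205.3, the highest in Control 3), a log2 difference of -0.50 (adjusted p 1.0) that was -0.25 without Control 3 (adjusted p 0.091). ATF3 and ATF5, further transcription factors, had log2 differences of 0.069 and 0 (0.099 and 0.17 without Control 3). DDIT3 rested on 5 to 14 reads and was not tested, and ATF4, the central factor of the response, was not analysed here.

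Likeness to ASNS was measured as the root mean square difference between mean-centred log2(FPKM + 1) profiles over the 6 libraries, for 9423 genes with a symbol outside the lists. The closest were PSAT1 (0.111), an enzyme of serine synthesis, CTH (0.127), which makes cysteine, ALDH1L2 (0.151), a mitochondrial folate enzyme, CYTB (0.167), the mitochondrially encoded cytochrome b, and FYN (0.177), a tyrosine kinase. CTH was at 18.3, 21.3 and 11.1 FPKM in the Control libraries and 36.7, 49.8 and 29.9 in MT, so its lowest library was Control 3 and its highest MT 2, the order seen in ASNS. Such a shared order follows largely from picking the 5 genes by likeness over these same 6 libraries. Among the enzymes themselves GPT2 (0.352) and PCK2 (0.392) came closest to ASNS, and in both Control 3 was the highest Control library instead of the lowest. Their distances cannot be set against those of the 5 genes, which were the smallest among 9423.

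**Figure D5:**
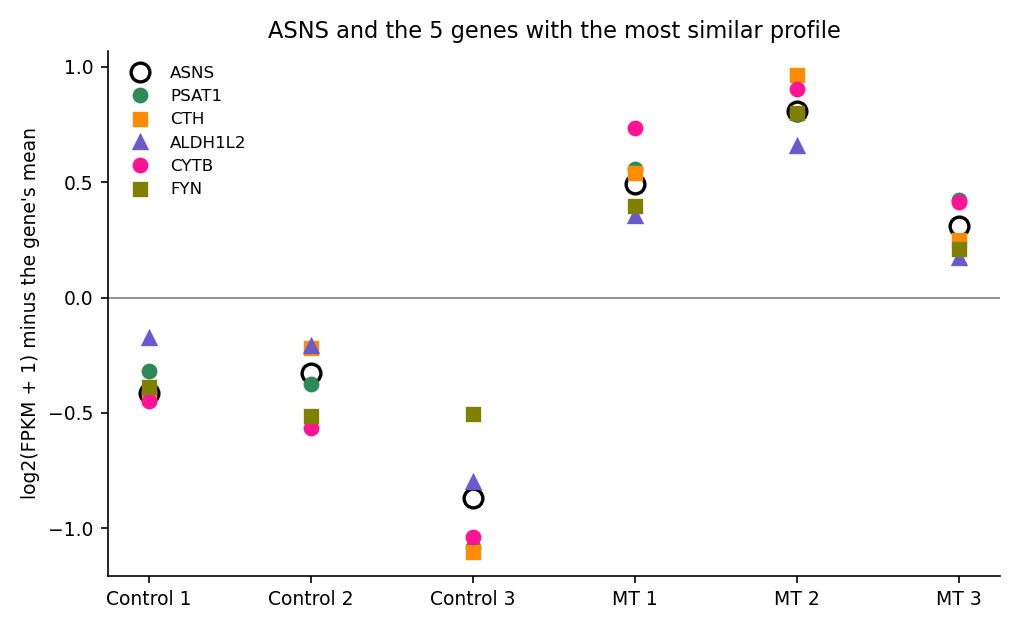
Mean-centred log2(FPKM + 1) of ASNS (open circles) and of the 5 most similar genes (filled symbols) in each library (horizontal axis). All 6 genes were lower in every Control library than in any MT library and highest in MT 2, and ASNS, PSAT1, CTH, ALDH1L2 and CYTB had their lowest value in Control 3. The 5 genes were picked for their likeness to ASNS over these libraries, so the shared shape follows largely from the choice.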

How the data were processed

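The authors deposited FPKM values per gene and library, with replicates not pooled. The build Sscrofa11.1 and the tools HISAT2, Subread, featureCounts and bcl2fastq are named in the submitters' processing notes. Not given in the sources used here are versions, annotation, strand setting, scaling between libraries and how reads shared by gene copies were counted. FPKM is tied to the library sum, so abundant transcripts can move all other values. Symbols were matched by Ensembl identifier (13173 of 20731 genes, 63.5%), and positions are those of the RefSeq gene of that symbol. Promoter and protein sequences were not used here.

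The 10950 genes whose mean reached 1 FPKM were compared in R 4.3.3 by limma 3.58.1 on log2(FPKM + 1) (group as the only term, variance trend, two-sided, Benjamini-Hochberg adjustment over all tested genes, threshold 0.05). The code was run on simulated data drawn independently for each gene. No simulated library stood apart over all genes as Control 3 did, so that run cannot show how the test behaves with such a library. For low genes the added 1 shrinks the log2 difference. Ratios and plots used Python 3.11.15. Whole reads were worked out from the FPKM steps (all 10950 tested genes within 0.01 of whole reads), which gave library totals of 19579279 to 21500665 reads, and 237 tested genes had fewer than 10 reads in some library. The 95% intervals of log2 differences come from limma and rest on the spread between libraries, and the errors given for reads cover counting error only.

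The enzymes and lists were chosen with earlier results of these data known. Named beside the 8 matched enzymes were ratio partners, response regulators, up to 3 genes per pathway list with the smallest p, and the 5 genes most like ASNS. Some genes that this rule names, and a ratio formed with one of them, are not reported here. Alternatives changed the pseudocount, the filter, the scaling and the variance model, or used voom, a replicate block and leaving out each library.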

Additional observations from a re-analysis of the deposited data

How the results depend on the processing

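The number of genes past the threshold was 0 under all 8 alternatives that kept the 6 libraries, and 0 to 1194 with a library left out: 1194 without Control 3 (469 rose and 725 fell) and 0 without any other. Of the 8 enzymes, 5 were higher in MT with all libraries, and 5 or 6 under the alternatives. ASNS, GPT2, GOT1, PYCR1 and PCK2 were higher and GLUD1 lower in each of the 14 alternatives. The sign of GOT2 turned without Control 1 (0.0036) and without Control 2 (0.0078), within a range of -0.10 to 0.0078 with a library left out. That of ALDH18A1 turned under quantile normalisation (0.0090) and without Control 3 (0.055), within a range of -0.060 to 0.055. The cause was not tested. The 2 ratios given kept their direction, but with a library left out PCK2 to PCK1 ranged from 0.42 to 1.08 and GOT2 to GOT1 from -0.26 to -0.11. Scaling to equal medians and quantile normalisation moved the median of all genes by -0.017 and -0.013.

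Replicate numbers are shared by the groups, but the labels do not say that a number marks a shared source. The libraries were therefore not taken as paired. Deviations of same-numbered libraries from their group means correlated at -0.44, 0.63 and 0.34, and 3 of 6 libraries correlated best with their own number. Deviations within a group of 3 depend on each other, and Control 3 weighs heavily on them. These values therefore cannot show whether the libraries were paired. With the replicate block 0 genes passed (smallest adjusted p 0.175), and it changed no call of the 8 enzymes. With fewer than 10 reads in a library counting error limits a gene, which was the case for none of the 8.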
